A study of Homo sapiens with 36 samples.

Results

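The SLAM family receptors are a small set of immune cell surface proteins, and 8 of their genes were followed here: SLAMF1, SLAMF6, SLAMF7, SLAMF8, CD48, CD84, CD244 and LY9. They were chosen by symbol, matched through Ensembl gene identifiers to the rows of the count files, and make up 8 of the 57500 genes listed and 8 of the 17720 genes that had enough counts to be tested. The starting point for the choice was a measured value, the higher level of SLAMF1 at 10% CO2 in LPS-stimulated cells, so SLAMF1 in that comparison is given below as a description without a test. The question that was tested is whether its 7 relatives followed it.

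SLAM receptors are immunoglobulin-like glycoproteins of leukocytes, and most of them bind another copy of themselves on a neighbouring cell. CD48 and CD244 are the exception, since CD48, a protein held in the membrane by a lipid anchor, is the ligand of CD244. The cytoplasmic tails of most members carry tyrosine motifs that recruit the small adaptors SAP (gene SH2D1A) and EAT-2 (SH2D1B), the kinase FYN and inhibitory phosphatases. In macrophages SLAMF1 also binds bacterial surface proteins, is carried on phagosomes and takes part in the TRAM-TRIF branch of signalling by TLR4, the receptor for lipopolysaccharide (LPS).

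The RNA came from THP-1 cells, a human monocytic leukaemia line, transduced with lentiviral particles for a non-target short hairpin RNA (shNT) or with a hairpin against NR4A2 (shNR4A2) or against NR4A3 (shNR4A3), nuclear receptors of the NR4A group. Each of these 3 stable lines was kept for 4 h in pH-buffered medium at 5% CO2 or at 10% CO2 (buffered hypercapnia), without LPS (basal) or with 2.5 µg/ml LPS for the final 2 h. The 12 conditions had 3 replicates each, 36 polyA-selected libraries in all. One stable line stands for each hairpin, so that an effect of the hairpin and other differences between the lines cannot be told apart, and where replicates were not separate cultures the p-values measure only the spread between libraries.

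The libraries held 16171161 to 23929138 counts. The targeted genes were checked first. NR4A2 was lower in shNR4A2 than in shNT cells in all 4 states, by log2 fold changes of -0.91 to -1.67, all of them called. NR4A3 was lower in shNR4A3 cells in 3 of the 4 states, and at 10% CO2 without LPS the difference was -0.39 with an adjusted p of 0.735. All 9 monocyte markers had a median of at least 1 TPM (transcripts scaled by gene length and library total), their sum was 884 to 2329 TPM per library, and the 5 T cell markers summed to at most 2.07 TPM. Of the 5 B cell markers 4 had a median of at least 1 TPM, but MS4A1 (CD20) had a median of 0. Among the 6 NK cell markers, NCAM1 had a median of 8.35 TPM and KLRD1 of 0.

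All 8 genes lie on the long arm of chromosome 1, within 1036 kb in GRCh38. In chromosome order the files place SLAMF8 (ENSG00000158714) at chr1:159826750-159837249 on the plus strand, SLAMF6 (ENSG00000162739) at chr1:160485030-160523262 on the minus strand and CD84 (ENSG00000066294) at chr1:160541095-160579516 on the minus strand. SLAMF1 (ENSG00000117090) follows at chr1:160608100-160647295 on the minus strand and CD48 (ENSG00000117091) at chr1:160678746-160711851 on the minus strand. SLAMF7 (ENSG00000026751) is at chr1:160739057-160754821 and LY9 (ENSG00000122224) at chr1:160796074-160828261, both on the plus strand, and CD244 (ENSG00000122223) is at chr1:160830160-160862855 on the minus strand. Genes on the opposite strand overlap SLAMF8 (SNHG28, 170 counts over the 36 libraries), CD48 (ENSG00000228863, 30 counts), CD84 and CD244 (4 and 5 counts), and without a stated strand setting the reads of such pairs cannot be told apart.

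The 250 bases before the RefSeq start (GRCh38.p14) were at hand for 5 of the 8 genes, and 3 are printed because their genes moved differently: SLAMF1 and CD48 were both higher at 10% CO2 with LPS, and SLAMF8 was the member called at 10% CO2 without LPS. They are given 5′ to 3′ along the gene, and capitals mark the single motif match found.
SLAMF1: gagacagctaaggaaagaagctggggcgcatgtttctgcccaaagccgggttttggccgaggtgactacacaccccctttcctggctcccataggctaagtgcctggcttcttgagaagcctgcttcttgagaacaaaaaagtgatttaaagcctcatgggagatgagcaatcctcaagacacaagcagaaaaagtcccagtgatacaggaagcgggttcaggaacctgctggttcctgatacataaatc
CD48: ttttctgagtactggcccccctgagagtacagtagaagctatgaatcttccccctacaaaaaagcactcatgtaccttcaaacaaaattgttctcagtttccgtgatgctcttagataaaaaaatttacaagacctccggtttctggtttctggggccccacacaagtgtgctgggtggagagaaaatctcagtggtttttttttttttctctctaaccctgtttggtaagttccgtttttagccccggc
SLAMF8: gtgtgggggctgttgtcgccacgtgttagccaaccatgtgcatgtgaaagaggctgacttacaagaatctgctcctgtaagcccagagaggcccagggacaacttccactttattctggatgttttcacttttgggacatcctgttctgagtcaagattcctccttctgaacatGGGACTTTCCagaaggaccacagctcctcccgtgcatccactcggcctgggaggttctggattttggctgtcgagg
The SLAMF1 sequence is chr1:160647045-160647294 on the minus strand, that of CD48 chr1:160711823-160712072 on the minus strand and that of SLAMF8 chr1:159826623-159826872 on the plus strand. They were searched on both strands for the NR4A monomer site NBRE (AAAGGTCA), the core of the interferon-stimulated response element (GAAANNGAA) and the NF-kB consensus. Only SLAMF8 held a match, the NF-kB consensus 76 bases before the RefSeq start, while SLAMF1, CD48, SLAMF6 and CD244 held none of the 3 motifs in this window. By the gene coordinates given above, the SLAMF1 window lies inside the gene and those of CD48 and SLAMF8 cross the gene start. The SLAMF8 match then falls inside the gene, so these windows are upstream only of the RefSeq starts. Of 35116 RefSeq promoters of this length, 1.05% held the NBRE, 6.88% the interferon element core and 9.96% the NF-kB consensus.

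The level of each gene was taken as TPM, which is per gene length and can be set against that of another gene. CD244, a receptor best known from NK cells, was the highest member in 10 of the 12 conditions, between 17.8 and 86.5 TPM over the 36 libraries with a median of 43.0. CD84, a self-binding receptor of myeloid cells and platelets, ranged from 1.95 to 13.1 TPM (median 5.92). SLAMF6, a self-binding receptor of T, B and NK cells, ranged from 0.771 to 6.94 TPM (median 2.80) and SLAMF8, a myeloid member with a short tail, from 0.520 to 4.79 TPM (median 1.57). SLAMF7, the self-binding receptor also called CRACC or CS1, covered the widest range, from 0.383 to 76.2 TPM, and was the highest member at 10% CO2 + LPS in both knockdown lines. LY9, a self-binding receptor of lymphocytes, was low throughout, at 0.120 to 0.648 TPM, and CD48 ran from 0 to 3.70 TPM.

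The order of the basal means in shNT cells at 5% CO2 was CD244 (47.9 ± 6.05 TPM, SD, n = 3), CD84 (5.83 ± 0.248), SLAMF6 (3.57 ± 0.269), SLAMF8 (1.11 ± 0.288), SLAMF1 (0.664 ± 0.252), SLAMF7 (0.526 ± 0.022), LY9 (0.380 ± 0.0682) and CD48 (0.0793 ± 0.0882). SLAMF8 and SLAMF1 were within their spread of each other, and so were SLAMF1 and SLAMF7. At 10% CO2 + LPS in the same line the order was CD244 (22.1 ± 3.75), SLAMF7 (12.8 ± 3.19), SLAMF1 (6.17 ± 0.658), CD84 (2.46 ± 0.598), SLAMF6 (1.96 ± 0.288), SLAMF8 (1.81 ± 0.404), CD48 (1.17 ± 0.185) and LY9 (0.182 ± 0.0814). There the 3 members in the middle, CD84, SLAMF6 and SLAMF8, overlapped. With so few counts for CD48 (0 to 67 per library) and LY9 (6 to 38), their levels carry a large counting error.

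**Figure D1:**
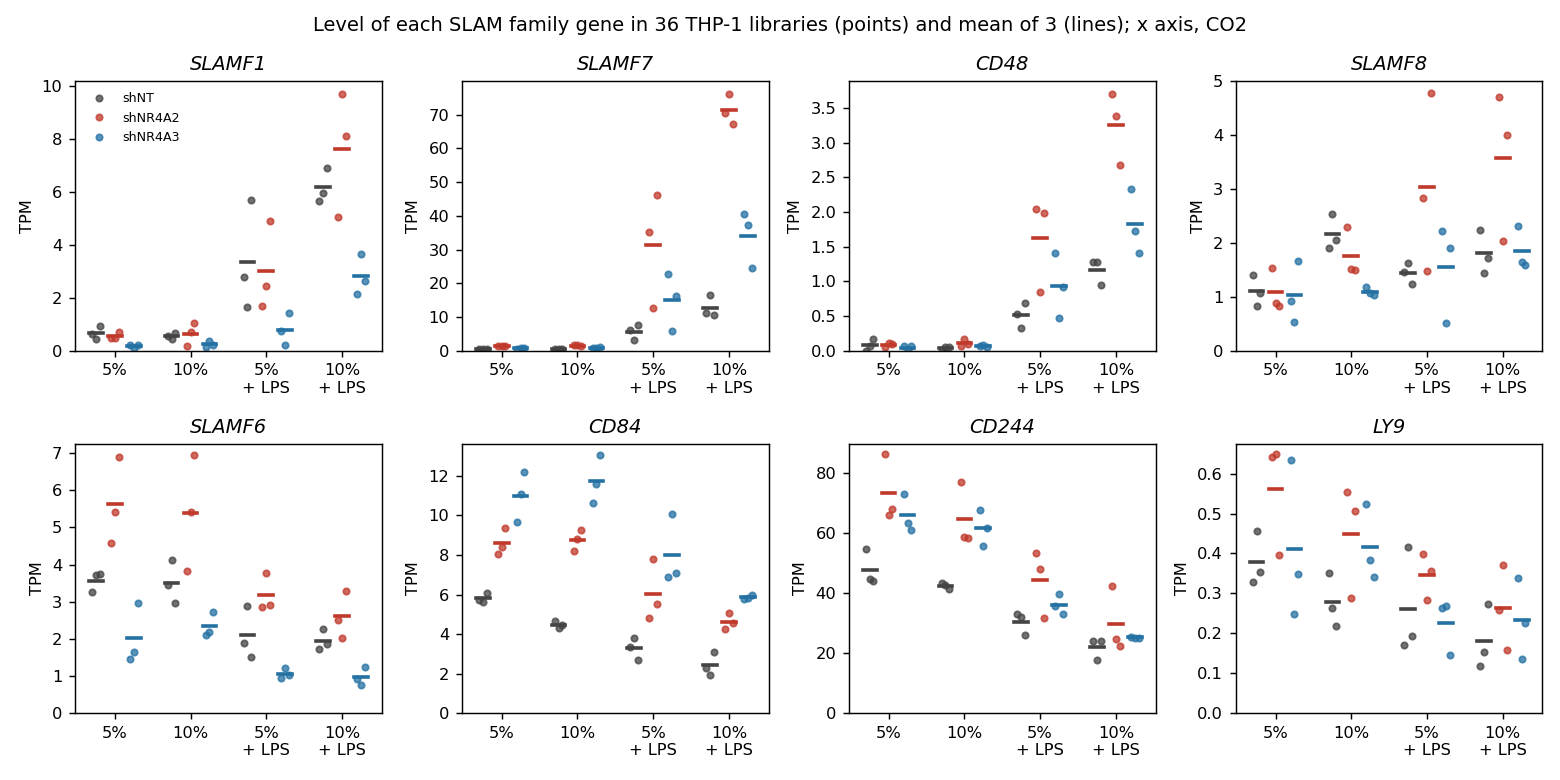
TPM of each of the 8 genes (y axes, linear from 0, a scale of its own in each panel) at 5% and 10% CO2, basal or with LPS, in shNT, shNR4A2 and shNR4A3 cells. Points are single libraries and lines the mean of 3; SLAMF1, SLAMF7 and CD48 are highest in the LPS-stimulated conditions, most of all at 10% CO2, and CD244 and CD84 are lowest at 10% CO2 + LPS.

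The rise of SLAMF1 that set the choice is described first. In shNT cells its level with LPS was 2.78, 1.65 and 5.69 TPM in the 3 libraries at 5% CO2 and 5.66, 5.95 and 6.92 TPM at 10% CO2. One library at 5% CO2, replicate 3, reached the level of the hypercapnic ones, so the groups overlapped. In shNR4A2 cells the values were 1.70, 2.43 and 4.89 TPM at 5% CO2 and 5.04, 9.71 and 8.12 TPM at 10% CO2. In shNR4A3 cells they were 0.736, 0.209 and 1.41 TPM at 5% CO2 and 2.13, 3.64 and 2.65 TPM at 10% CO2. Neither knockdown line showed overlap, and the level in shNR4A3 cells was the lowest of the 3 lines on both sides. The fitted log2 fold changes were 0.98 in shNT, 1.37 in shNR4A2 and 1.81 in shNR4A3 cells, and 1.31 (SE 0.28) over the 3 lines. Without replicate 3 at 5% CO2 + LPS, where SLAMF1 was highest in each line, they were 1.63, 1.94 and 2.54. The lowest values with 1 library left out were 0.64 in shNT (without replicate 2 at 5% CO2 + LPS), 1.12 in shNR4A2 (without replicate 1) and 1.38 in shNR4A3 cells (without replicate 2). Without LPS the 3 lines pooled gave 0.15 (SE 0.27, adjusted p = 0.771).

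Of the 7 relatives, SLAMF7 and CD48 were higher and CD84 and CD244 lower at 10% CO2 in LPS-stimulated cells when the 3 lines were fitted together. SLAMF7 was higher by 1.24 on the log2 scale (SE 0.28, adjusted p = 0.00381) and CD48 by 1.08 (SE 0.21, adjusted p = 0.000593). CD84 fell by 0.33 on the log2 scale (SE 0.09, adjusted p = 0.00495) and CD244 fell by 0.43 on the log2 scale (SE 0.12, adjusted p = 0.0136). SLAMF8 (0.33, adjusted p = 0.346), SLAMF6 (-0.09, adjusted p = 0.711) and LY9 (-0.21, adjusted p = 0.586) did not pass. That makes 4 of 7 relatives called against 30.8% of all genes, with 2 called higher against 15.3% of all genes and 2 lower against 15.5%. The median log2 fold change was -0.09 over the relatives and 0.00 over all genes. In bulk RNA such as this, fewer cells expressing a gene and less of its RNA per cell cannot be told apart.

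The SLAMF7 libraries at 10% CO2 with LPS lay above those at 5% CO2 in all 3 lines. With LPS it stood at 6.02, 3.32 and 7.59 TPM at 5% CO2 and at 11.2, 16.4 and 10.7 TPM at 10% CO2 in shNT cells. The levels in shNR4A2 cells were several times higher, 35.1, 12.6 and 46.3 TPM at 5% CO2 and 70.5, 76.2 and 67.2 TPM at 10% CO2. The shNR4A3 cells lay between, with 22.9, 5.90 and 16.3 TPM at 5% CO2 and 40.4, 37.2 and 24.7 TPM at 10% CO2. In all 3 lines the lowest of these libraries was replicate 2 at 5% CO2. The log2 fold changes of the single lines were close to each other, 1.31 in shNT, 1.21 in shNR4A2 and 1.20 in shNR4A3 cells, and none passed on 6 libraries (adjusted p = 0.0925, 0.276 and 0.299).

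CD48, the ligand of CD244, followed the same course at a lower level. In shNT cells with LPS it was 0.532, 0.330 and 0.688 TPM at 5% CO2 and 1.28, 1.27 and 0.954 TPM at 10% CO2. The shNR4A2 libraries had 2.04, 0.849 and 1.98 TPM at 5% CO2 and 3.70, 3.38 and 2.67 TPM at 10% CO2. The shNR4A3 libraries had 1.41, 0.476 and 0.921 TPM at 5% CO2 and 2.33, 1.73 and 1.41 TPM at 10% CO2. The libraries at 10% CO2 lay above those at 5% in all 3 lines, by only a narrow margin in shNR4A3 cells, and replicate 2 at 5% CO2 was again the lowest. The log2 fold changes were 1.28, 1.04 and 0.97 in shNT, shNR4A2 and shNR4A3 cells (adjusted p = 0.0549, 0.166 and 0.200).

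The receptor of CD48 moved the other way. With LPS, CD244 was at 33.0, 32.2 and 26.2 TPM at 5% CO2 and at 24.2, 17.8 and 24.3 TPM at 10% CO2 in shNT cells. In shNR4A3 cells it was at 35.8, 39.8 and 33.3 TPM at 5% CO2 and at a narrow 25.6, 25.1 and 25.2 TPM at 10% CO2. These pairs of groups did not overlap, whereas those of shNR4A2 cells did, at 53.5, 48.2 and 31.7 against 42.5, 24.6 and 22.6 TPM. In shNR4A3 cells CD244 fell by 0.47 on the log2 scale (SE 0.10, adjusted p = 0.0376), the only call among the 7 relatives in a single line. This call was lost when any one of 5 of the 6 libraries was left out (adjusted p up to 0.188), all but replicate 3 at 5% CO2 + LPS. CD84 was lower without overlap in shNR4A3 cells, at 6.91, 10.1 and 7.11 TPM at 5% CO2 and 5.76, 5.85 and 5.98 TPM at 10% CO2 (log2 fold change -0.39, adjusted p = 0.127).

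By line, then, 0 of 7 relatives were called with LPS in shNT cells against 8.19% of all genes, 0 of 7 in shNR4A2 cells against 0.198% and 1 of 7 in shNR4A3 cells against 2.13%. At an unadjusted p under 0.05 there were 3, 2 and 3 relatives, against 25%, 16.3% and 19.1% of all genes, and DESeq2 called 1 in shNT cells, SLAMF7. Without shNT replicate 3 at 5% CO2 + LPS the shNT count was 3, SLAMF7, CD48 and CD244, and without shNR4A2 replicate 2 at 5% CO2 + LPS the shNR4A2 count was 1, SLAMF7. The share of all genes called was not set beside the DESeq2 count or the counts with a library left out. Tests of the difference in CO2 response with LPS between each knockdown line and shNT called 0 of 7 relatives, as they called 0% of all genes. For SLAMF7 that difference was -0.07 for shNR4A2 (95% interval -1.60 to 1.46) and -0.09 for shNR4A3 (-1.69 to 1.52).

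The pooled result depended on the replicate numbers. Omitting replicate 2 at 5% CO2 + LPS from every line, a choice made after the values were seen, left 2 of the 4 calls: SLAMF7 at 0.87 (adjusted p = 0.00131) and CD48 at 0.77 (adjusted p = 0.00413). CD84 was then at -0.19 (adjusted p = 0.0754) and CD244 at -0.41 (adjusted p = 0.0833), and SLAMF1 was at 1.01. Libraries of different lines with the same number deviated together at 5% CO2 + LPS, so the 18 libraries are not 18 independent samples. With the counts of the 3 lines summed by replicate number, 3 sums against 3, the fold changes were much the same but 0 of 7 relatives passed, with SLAMF7 at 1.27 (adjusted p = 0.0968) and CD48 at 1.10 (adjusted p = 0.0674). That fit called 979 genes in all.

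Markers of the LPS response differed between the same libraries. At 5% CO2 + LPS the summed level of 9 interferon-related genes was 445, 486 and 781 TPM in replicates 1, 2 and 3 of shNT cells, 440, 426 and 949 TPM in shNR4A2 cells and 927, 669 and 1298 TPM in shNR4A3 cells. The sum was highest in replicate 3 of each line, where SLAMF1 was highest too. Most of this sum was CXCL10 (255.6, 280.8 and 554.9 TPM in shNT cells), and single genes of the list differed: RSAD2 was highest in replicate 2 of shNT cells (3.46, 5.82 and 4.99 TPM) and lower at 10% CO2 + LPS (2.41, 2.73 and 3.56 TPM). At 10% CO2 + LPS the sums were 662, 1181 and 1044 TPM, 569.5, 1079 and 1032 TPM, and 1118, 1694 and 1460 TPM in the same order of lines. The sum of 7 early NF-kB target genes was highest in replicate 1 of each line at 5% CO2 + LPS, at 18630, 23590 and 20720 TPM, and lay between 14730 and 17750 TPM in the other replicates. The part of these differences in the values of SLAMF7, CD48 and SLAMF1 was not tested.

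**Figure D2:**
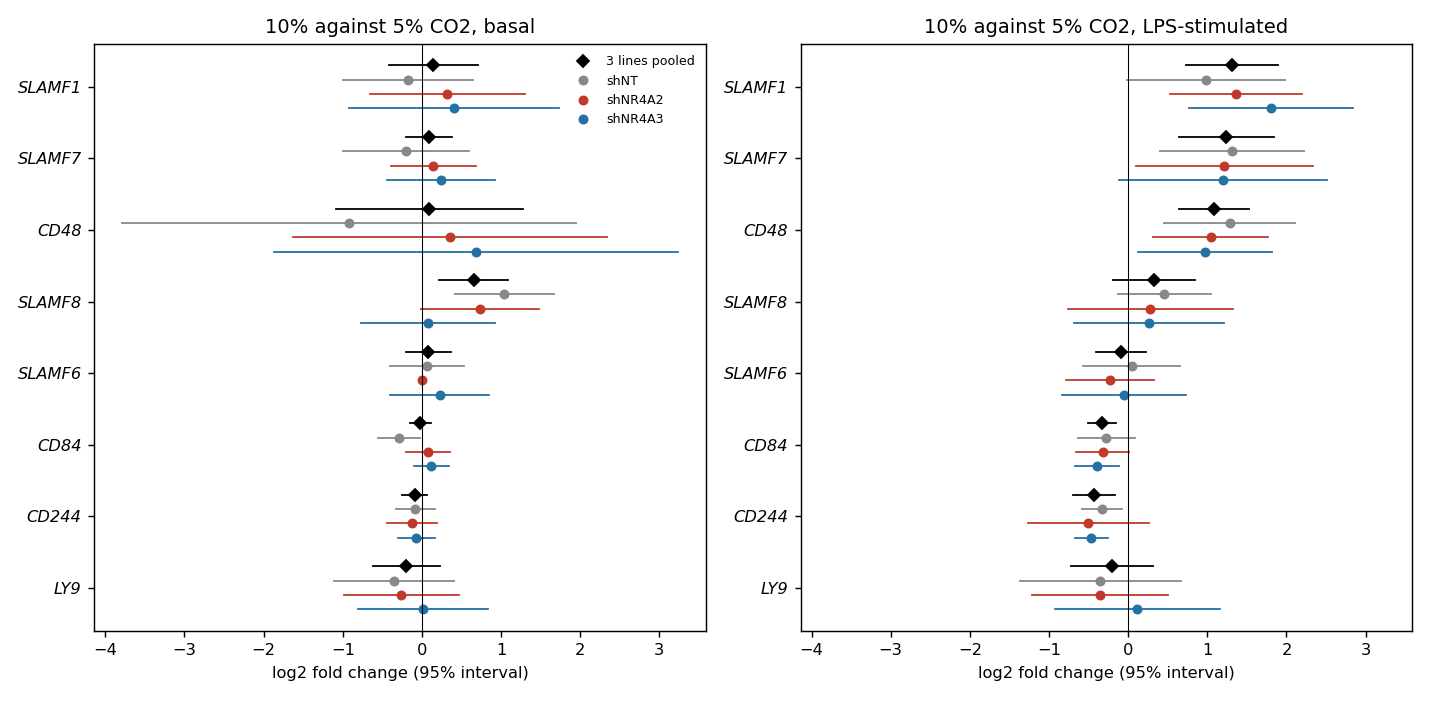
Log2 fold change of 10% against 5% CO2 (x axes, with 95% intervals) for each gene, basal on the left and LPS-stimulated on the right; diamonds are the fit to the 3 lines together and circles single lines. SLAMF7 and CD48 lie right of 0 and CD84 and CD244 left of 0 with LPS; SLAMF1 with LPS is a description, and a marker with no bar is a change too close to 0 for a standard error.

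Without LPS the counts of members called for CO2 were near the share of all genes. No member was called in a single line (0 of 8 each, against 0.615% of all genes in shNT, 0.0113% in shNR4A2 and 1.13% in shNR4A3 cells), and at an unadjusted p under 0.05 there were 2, 0 and 0 members, against 14.9%, 8.07% and 16.7% of all genes. Over the 3 lines together 1 of 8 was called, against 17.9% of all genes. This was SLAMF8, at 1.41, 0.834 and 1.08 TPM at 5% CO2 and 1.92, 2.54 and 2.06 TPM at 10% CO2 in shNT cells, groups that did not overlap. The shNR4A2 libraries had 1.54, 0.891 and 0.824 TPM at 5% CO2 and 2.29, 1.51 and 1.49 TPM at 10% CO2, and the shNR4A3 libraries 0.931, 0.529 and 1.66 TPM and 1.18, 1.07 and 1.04 TPM, both with overlap. SLAMF8 was higher by 0.65 on the log2 scale (SE 0.21, adjusted p = 0.0314). The call was lost without any one of 7 libraries (replicates 2 and 3 of shNT and of shNR4A2 at 5% CO2, replicate 2 of shNT and replicate 1 of shNR4A2 at 10% CO2, and replicate 2 of shNR4A3 at 5% CO2; adjusted p up to 0.0739), with the counts summed over the lines (adjusted p = 0.131) and in a fit to all 36 libraries (adjusted p = 0.109).

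A difference between the CO2 responses with and without LPS was tested for in each line. None of the 7 relatives was called in shNT, shNR4A2 or shNR4A3 cells, against 0.0226% of all genes in shNT cells and 0% in the knockdown lines, with edgeR and with DESeq2. At an unadjusted p under 0.05 there were 1, 0 and 2 relatives, against 5.78%, 5.1% and 5.62% of all genes. For SLAMF7 in shNT cells the CO2 response was larger with LPS by 1.51 (SE 0.58, adjusted p = 0.778), and a test of all genes without a filter on low counts called it (adjusted p = 0.0489). The 2 in shNR4A3 cells were CD84 (-0.50, adjusted p = 0.831) and CD244 (-0.39, adjusted p = 0.849).

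LPS itself separated the family into 3 patterns. SLAMF1, SLAMF7 and CD48 rose in all 3 lines at both CO2 levels, CD84, CD244 and SLAMF6 were lower in every comparison though not always called, and SLAMF8 rose in part of them. In shNT cells 5 of 8 members were called at 5% CO2, against 22.9% of all genes, with 3 higher (11.2% of all genes) and 2 lower (11.6%). At 10% CO2 there were 5 of 8 in the same line, against 31.2%. The counts were 4 of 8 against 18.2% at 5% CO2 and 6 of 8 against 35% at 10% CO2 in shNR4A2 cells, and 4 of 8 against 25.3% and 7 of 8 against 42.1% in shNR4A3 cells. All these counts include SLAMF1, whose level with LPS at both CO2 levels entered its choice. Without it those at 10% CO2 were 4, 5 and 6 of 7 in shNT, shNR4A2 and shNR4A3 cells. The counts at both CO2 levels also include CD48, which passed the filter on low counts only through the LPS-stimulated conditions. Neither gene therefore adds to the comparison with the share of all genes. Apart from SLAMF1 and CD48, the members called in shNT cells were SLAMF7, CD84 and CD244 at both CO2 levels, and only SLAMF7 was higher. At 5% CO2 the remaining calls were SLAMF7 and SLAMF8 in shNR4A2 cells and SLAMF7 and CD244 in shNR4A3 cells.

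SLAMF7 had the largest fitted LPS response of the 8 members in all 6 comparisons. Its basal level in shNT cells was 0.509, 0.517 and 0.551 TPM at 5% CO2 and 0.454, 0.383 and 0.448 TPM at 10% CO2, far below every LPS-stimulated library. The log2 fold changes were 3.65 (SE 0.34, adjusted p = 5.12e-06) at 5% CO2 and 5.16 (SE 0.26, adjusted p = 7.32e-11) at 10% CO2 in shNT cells, 4.76 and 5.84 in shNR4A2 cells and 4.63 and 5.62 in shNR4A3 cells. SLAMF1 rose from 0.617, 0.439 and 0.936 TPM in basal shNT cells at 5% CO2, by 2.58 on the log2 scale (SE 0.52, adjusted p = 0.0067). The corresponding values of SLAMF1 were 2.71 in shNR4A2 and 2.26 in shNR4A3 cells at 5% CO2, and 3.74, 3.75 and 3.69 at 10% CO2. The LPS-stimulated libraries at both CO2 levels are those behind the choice of the gene, so its calls here are not independent of that choice. The call at 5% CO2 in shNR4A3 cells (adjusted p = 0.026) was lost when any one of 5 of the 6 libraries was left out (adjusted p up to 0.167), all but replicate 2 with LPS. The libraries of that comparison held 2 to 5 counts basally and 17, 4 and 36 counts with LPS.

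CD48 was close to the limit of detection in basal cells, with 2 to 6 counts summed over the 3 libraries of a condition. In shNT cells the 3 libraries together held 4 counts basally and 30 with LPS at 5% CO2, a depth-scaled ratio of 6.97 with an exact 95% interval of 2.46 to 27.3. At 10% CO2 they held 2 and 67 counts, a ratio of 34.0 (9.06 to 287). The ratios were 19.6 (8.08 to 61.9) and 30.6 (13.8 to 84.5) in shNR4A2 cells and 23.2 (6.10 to 197) and 25.8 (9.78 to 96.6) in shNR4A3 cells, at 5% and 10% CO2. The intervals cover counting error only and overlap throughout. CD48 passed the filter on low counts only through the LPS-stimulated conditions, where it is high, so that its call in all 6 comparisons adds nothing to the ratios. In shNT cells at 5% CO2 the call was lost without replicate 3 with LPS (adjusted p = 0.0661), where that of CD244 was lost too. The CD244 call was also lost there without basal replicate 1 (adjusted p up to 0.097).

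SLAMF8 was called higher with LPS in 3 of the 4 comparisons of the knockdown lines. In shNR4A2 cells it went from 1.54, 0.891 and 0.824 TPM to 2.83, 1.48 and 4.79 TPM at 5% CO2, groups that overlapped by a small margin. The log2 fold changes there were 1.75 (SE 0.43, adjusted p = 0.0112) at 5% CO2 and 1.32 (SE 0.34, adjusted p = 0.00709) at 10% CO2. In shNR4A3 cells SLAMF8 was called at 10% CO2 (1.03, SE 0.30, adjusted p = 0.0129) and not at 5% CO2 (0.81, adjusted p = 0.313). The shNR4A2 call at 5% CO2 was lost without basal replicate 2 or LPS replicate 3 (adjusted p up to 0.0686), and the shNR4A3 call without LPS replicate 1 (adjusted p = 0.0604). In shNT cells the values were 0.58 (adjusted p = 0.224) and 0.00 (adjusted p = 0.993). The difference in LPS response at 5% CO2 between shNR4A2 and shNT cells was 1.18 for SLAMF8 (SE 0.57, adjusted p = 1, or 0.0563 unadjusted), and 0 of 8 members passed this test in shNR4A2 or in shNR4A3 cells, against 0% of all genes, with 0 members also at an unadjusted p under 0.05 and 0 by DESeq2.

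CD84 fell with LPS by 0.61 (SE 0.14) and 0.59 (SE 0.15) on the log2 scale in shNT cells at 5% and 10% CO2, and by 0.64 and 0.73 in shNR4A2 and shNR4A3 cells at 10% CO2, all called. At 5% CO2 the knockdown lines gave -0.26 (adjusted p = 0.316) and -0.24 (adjusted p = 0.221). CD244 fell by 0.43 and 0.68 in shNT cells and by 0.65 and 1.01 in shNR4A3 cells, all called. In shNR4A2 cells CD244 was at -0.46 (adjusted p = 0.0989) and -0.82 (adjusted p = 0.0735), and with the replicate number as a block, which pairs these libraries, both were called (adjusted p = 0.00796 and 2.25e-07). SLAMF6 was called at 10% CO2 in shNR4A2 (-0.77, adjusted p = 0.0313) and shNR4A3 cells (-0.97, adjusted p = 0.0177), and lay between -0.72 and -0.55 elsewhere. Both calls of SLAMF6 depended on single libraries: basal replicates 2 and 3 and LPS replicate 2 in shNR4A2 cells (adjusted p up to 0.178 without one of them), and basal replicate 3 and LPS replicate 2 in shNR4A3 cells (up to 0.0683). LY9 was not called in any of the 6 comparisons (-0.67 to -0.32). Scaling by library size alone moved the median of all genes by -0.25 to -0.18 in these comparisons, and under it SLAMF6 was also called in shNT cells (adjusted p = 0.0477 and 0.018 at 5% and 10% CO2) and in shNR4A2 cells at 5% CO2 (adjusted p = 0.0333), CD244 in shNR4A2 cells (0.0122 and 0.00429) and CD84 in shNR4A3 cells at 5% CO2 (0.0422).

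**Figure D3:**
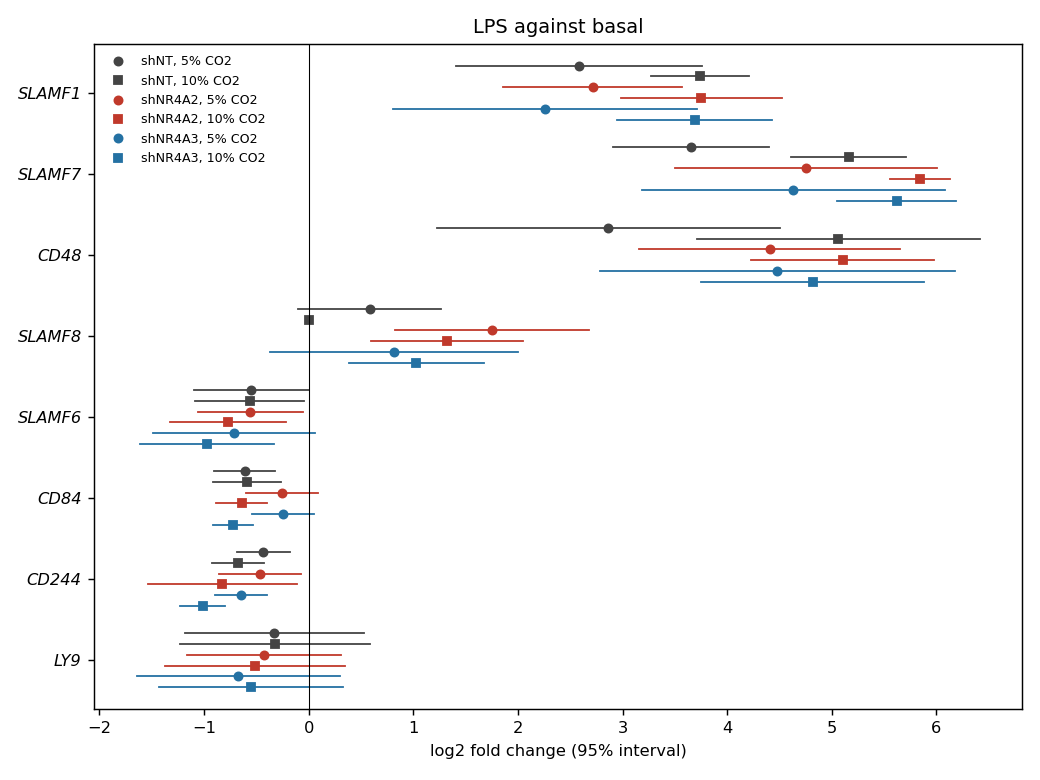
Log2 fold change of LPS-stimulated against basal cells (x axis, with 95% intervals) for each gene in the 3 lines at 5% CO2 (circles) and 10% CO2 (squares). SLAMF1, SLAMF7 and CD48 lie between 2.26 and 5.84, and all CD84, CD244, SLAMF6 and LY9 values are below 0.

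Among the knockdown comparisons, CD84 was called in all 8, and CD244 and SLAMF7 in 4 each. In shNR4A2 cells 3 of 8 members were called at 5% CO2 without LPS against 5.69% of all genes, 1 with LPS against 6.21%, and at 10% CO2 3 without LPS against 7.95% and 3 with LPS against 18.9%. In shNR4A3 cells the counts were 2 against 6.19% and 1 against 5.41% at 5% CO2, and 3 against 6.85% and 4 against 14.5% at 10% CO2, the last count including SLAMF1. The median log2 fold change of the members lay between 0.57 and 0.79 in shNR4A2 and between 0.08 and 0.53 in shNR4A3 cells, and that of all genes between -0.01 and 0.00. The monocyte marker list moved the same way: its 9 genes summed to 884 to 1285 TPM in shNT, 1568 to 1925 TPM in shNR4A2 and 1731 to 2329 TPM in shNR4A3 libraries. The NK cell list, most of it NCAM1, summed to 2.42 to 4.60 TPM in shNT and 8.52 to 18.1 TPM in knockdown libraries. The part of these in the values that follow was not tested.

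CD84 was higher in both knockdown lines in all 4 states, and every one of these 8 differences was called. In basal cells at 5% CO2 it was at 5.75, 5.62 and 6.10 TPM in shNT, 8.05, 8.40 and 9.39 TPM in shNR4A2 and 9.69, 11.1 and 12.2 TPM in shNR4A3 cells. The 3 lines did not overlap. Its log2 fold changes were 0.56 to 0.93 in shNR4A2 cells and 0.97 to 1.37 in shNR4A3 cells, the largest of them at 10% CO2 without LPS (SE 0.11, adjusted p = 3.3e-07). The shNR4A2 calls at 5% CO2 were lost when one of several libraries was left out: basally without any shNT replicate or shNR4A2 replicate 3 (adjusted p up to 0.0689), and with LPS without shNT replicate 3 (adjusted p = 0.0552).

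CD244 was called higher in both knockdown lines without LPS. At 5% CO2 the basal libraries held 54.8, 44.7 and 44.1 TPM in shNT, 86.5, 66.1 and 68.0 TPM in shNR4A2 and 73.3, 63.5 and 61.2 TPM in shNR4A3 cells. All knockdown libraries stood above all shNT libraries. The log2 fold changes were 0.62 (SE 0.14, adjusted p = 0.02) and 0.57 (SE 0.14, adjusted p = 0.0103) in shNR4A2 and 0.51 (SE 0.12, adjusted p = 0.0169) and 0.52 (SE 0.11, adjusted p = 0.00591) in shNR4A3 cells, at 5% and 10% CO2. Each of these 4 calls was lost without 1 knockdown library, replicate 1, and both at 5% CO2 also without shNT replicate 2 or 3 (adjusted p up to 0.102). Under another setting the shNR4A2 call at 10% CO2 was lost too (adjusted p up to 0.0548). So were the shNR4A3 calls at 5% and 10% CO2 (adjusted p up to 0.125 and 0.127). With LPS the same differences were 0.60 and 0.42 in shNR4A2 and 0.31 and 0.18 in shNR4A3 cells and none was called, but with the replicate block, which pairs these libraries, both at 5% CO2 were (adjusted p = 8.05e-07 and 0.0138).

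SLAMF7 was higher in shNR4A2 cells, by 1.42 (SE 0.27, adjusted p = 0.00865) at 5% CO2 and 1.76 (SE 0.31, adjusted p = 0.000872) at 10% CO2 without LPS. Both of these basal calls were kept with any library left out but lost under another setting (adjusted p up to 0.251 at 5% and 0.137 at 10% CO2). With LPS the difference was 2.54 at 5% CO2 (SE 0.58, adjusted p = 0.0614) and 2.44 at 10% CO2 (SE 0.18, adjusted p = 8.33e-05). The former was called with the replicate number as a block (adjusted p = 3.69e-24) and without the low library, shNR4A2 replicate 2 (adjusted p = 0.00776). The block fit rests on 3 pairs of libraries, and the pairing was read from these same data, so the size of that p is no measure of certainty. The basal libraries held 1.47, 1.38 and 1.40 TPM in shNR4A2 against 0.509, 0.517 and 0.551 TPM in shNT cells, and no state had overlapping groups. In shNR4A3 cells the call was at 10% CO2 with LPS (1.38, SE 0.28, adjusted p = 0.029), lost without any one of 4 libraries (shNT replicate 1 or 3, shNR4A3 replicate 1 or 2; adjusted p up to 0.0976). CD48 was higher in shNR4A2 cells at 10% CO2 with LPS (1.45, SE 0.26, adjusted p = 0.00183), and at 5% CO2 with LPS by 1.69 (adjusted p = 0.052, or 0.000313 with the replicate block).

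SLAMF1 and SLAMF6 had fitted values below 0 in shNR4A3 cells in all 4 states, most of them not called. SLAMF1 was below shNT in every library of the 4 states, at 0.233, 0.106 and 0.233 TPM in basal shNR4A3 cells at 5% CO2. Its log2 fold changes were -1.69 (adjusted p = 0.0727) at 5% CO2 basal and -1.12 (adjusted p = 0.197) at 10% CO2 basal. With LPS the values were -1.99 (SE 0.68) at 5% CO2 and -1.16 (SE 0.18) at 10% CO2. The values with LPS are given without a test, because the level of SLAMF1 with LPS at both CO2 levels entered its choice. SLAMF6 was at -0.76, -0.92 and -0.61 at 5% CO2 basal, 5% CO2 + LPS and 10% CO2 basal. It fell by 1.01 at 10% CO2 + LPS (SE 0.32, adjusted p = 0.0485), a call lost without any one of the 6 libraries (adjusted p up to 0.156). In shNR4A2 cells SLAMF1 lay between -0.27 and 0.27 and was not called, and SLAMF6 lay between 0.38 and 0.66, called only at 5% CO2 with the replicate block (adjusted p = 0.0191 basal, 0.0375 with LPS).

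SLAMF8 was lower in basal shNR4A3 cells at 10% CO2, at 1.18, 1.07 and 1.04 against 1.92, 2.54 and 2.06 TPM in shNT cells. It fell by 1.01 on the log2 scale (SE 0.28, adjusted p = 0.0377), a call lost by DESeq2 (adjusted p = 0.148) and without any one of 5 libraries, all but shNT replicate 1 (adjusted p up to 0.164). With the replicate number as a block, the counts at 5% CO2 with LPS rose from 1 to 6 in shNR4A2 cells, adding SLAMF6, SLAMF7, SLAMF8, CD48 and CD244, and from 1 to 4 in shNR4A3 cells, adding SLAMF1, SLAMF7 and CD244. Under the same block 24.7% and 18.7% of all genes were called. The shNR4A3 count of 4 includes SLAMF1, whose level with LPS entered its choice. At 10% CO2 with LPS the block added SLAMF8 in shNR4A2 cells (adjusted p = 0.000589). LY9 was not called in either line, at -0.15 to 0.65. A ninth family gene outside the list, SLAMF9, was called higher in shNR4A2 cells in 3 of 4 states (1.31 to 1.74; 1.22 with an adjusted p of 0.0533, or 0.00223 with the replicate block, at 5% CO2 + LPS) and in basal shNR4A3 cells (1.74 and 1.36). Its call at 5% CO2 basal in shNR4A2 cells was lost without any one of 5 libraries, all but shNR4A2 replicate 1 (adjusted p up to 0.113), and that at 10% CO2 basal in shNR4A3 cells without shNT replicate 2 or shNR4A3 replicate 3 (up to 0.0661).

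**Figure D4:**
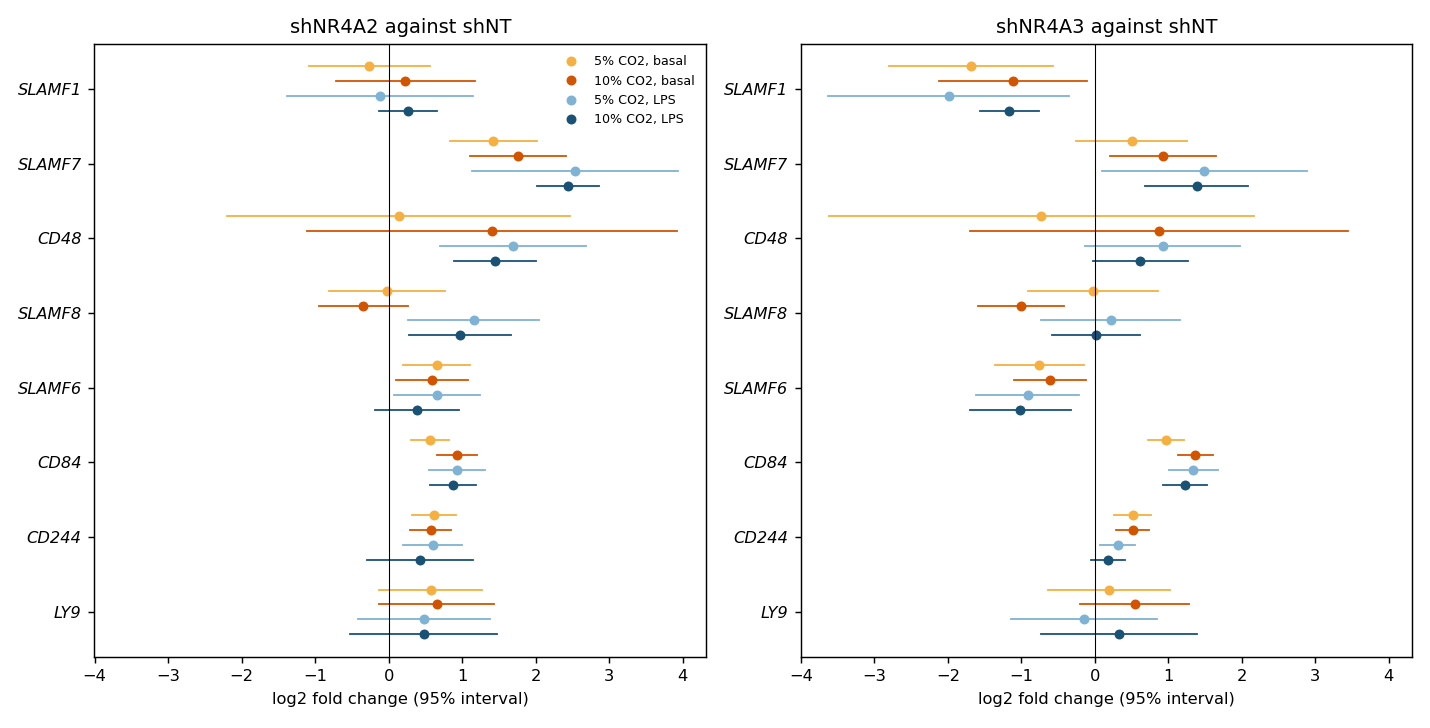
Log2 fold change of shNR4A2 (left) and shNR4A3 (right) against shNT cells (x axes, with 95% intervals) for each gene in the 4 states. CD84 lies right of 0 in both panels in every state, and the fitted values of SLAMF1 and SLAMF6 lie left of 0 in the shNR4A3 panel, where SLAMF6 was called in 1 of 4 states.

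The knockdown lines were also set against each other, a comparison added after the values were seen. SLAMF6 was lower in shNR4A3 than in shNR4A2 cells in all 4 states, and at least 1 member was called in each: 1 of 8 against 2.7% of all genes at 5% CO2 basal, 1 against 2.25% at 5% CO2 + LPS, 2 against 7.56% at 10% CO2 basal and 3 against 6.04% at 10% CO2 + LPS. In basal cells at 5% CO2 SLAMF6 was at 1.45, 1.65 and 2.97 TPM in shNR4A3 and 4.60, 5.42 and 6.89 TPM in shNR4A2 cells. The groups did not overlap there or in any other state. With the replicate number as a block, which pairs these libraries, the counts were 3, 5, 4 and 6, against 11.2%, 21.5%, 20.7% and 16.2% of all genes under the same block. The counts at 10% CO2 + LPS, and that at 5% CO2 + LPS with the block, include SLAMF1, whose level with LPS entered its choice.

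Genes of SLAM signalling and of pathways linked to it were taken from a list of 21, of which 18 were tested. It held 8 genes for adaptors, kinases and phosphatases of the SLAM tails. The others belong to the TRAM-TRIF branch of TLR4, the VPS34 complex and NADPH oxidase, and the Mac-1 integrin. The adaptor genes SH2D1A and SH2D1B reached at most 2 and 4 counts in a library and TICAM2, which encodes TRAM, at most 13, so these were not tested. In LPS-stimulated cells of the 3 lines together, 3 of the 18 were higher and 7 lower at 10% CO2, against 15.3% and 15.5% of all genes. FYN, the kinase recruited by SAP, rose by 0.51 (SE 0.06, adjusted p = 2.55e-06). CSK, which restrains kinases of the SRC family, fell by 0.29 (adjusted p = 0.000375), INPP5D, the lipid phosphatase SHIP1, by 0.43 (adjusted p = 0.000693), and TLR4 by 0.63 (adjusted p = 0.00105). NCF4, a subunit of the phagocyte NADPH oxidase, fell by 0.21 (adjusted p = 0.00404). Basally 1 was called higher, FYN (0.47, adjusted p = 9.68e-05), and 3 lower, TLR4 among them (-0.38, adjusted p = 0.0255), where 17.9% of all genes were called. LPS in shNT cells at 5% CO2 raised 3 and lowered 2, close to the 11.2% and 11.6% of all genes. With the counts summed over the 3 lines, 1 gene was called higher with LPS and 0 lower.

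Along the locus, the members called higher and SLAMF1 stood next to each other. Among tested genes CD48 follows SLAMF1 directly, its start 64.6 kb away, and SLAMF7 follows CD48, 91.8 kb from the start of SLAMF1, while CD84 lies 67.8 kb to the other side. The nearest member beyond SLAMF7 is LY9, 148.8 kb from SLAMF1, and then CD244 at 215.6 kb. Of the 19 other tested genes between SLAMF8 and CD244, 0 were called higher and 5 lower at 10% CO2 with LPS, against 15.3% and 15.5% of all genes: IGSF9 (-0.81, SE 0.18, adjusted p = 0.00139), LINC01133 (-0.53, adjusted p = 0.00445), PEX19 (-0.19, adjusted p = 0.00291), TAGLN2 (-0.11, adjusted p = 0.0292) and NCSTN (-0.11, adjusted p = 0.0366), the last of them named after its value was seen. With the counts summed over the lines 0 of the 19 were called. All 19 start between SLAMF8 and SLAMF6, at -791.9 to -246.7 kb from the start of SLAMF1. None of them therefore stands among SLAMF1, CD48 and SLAMF7. The TAGLN2 call was lost without any one of 7 libraries (adjusted p up to 0.092). SLAMF9 was at -0.23 (adjusted p = 0.321). No test was made of the arrangement.

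**Figure D5:**
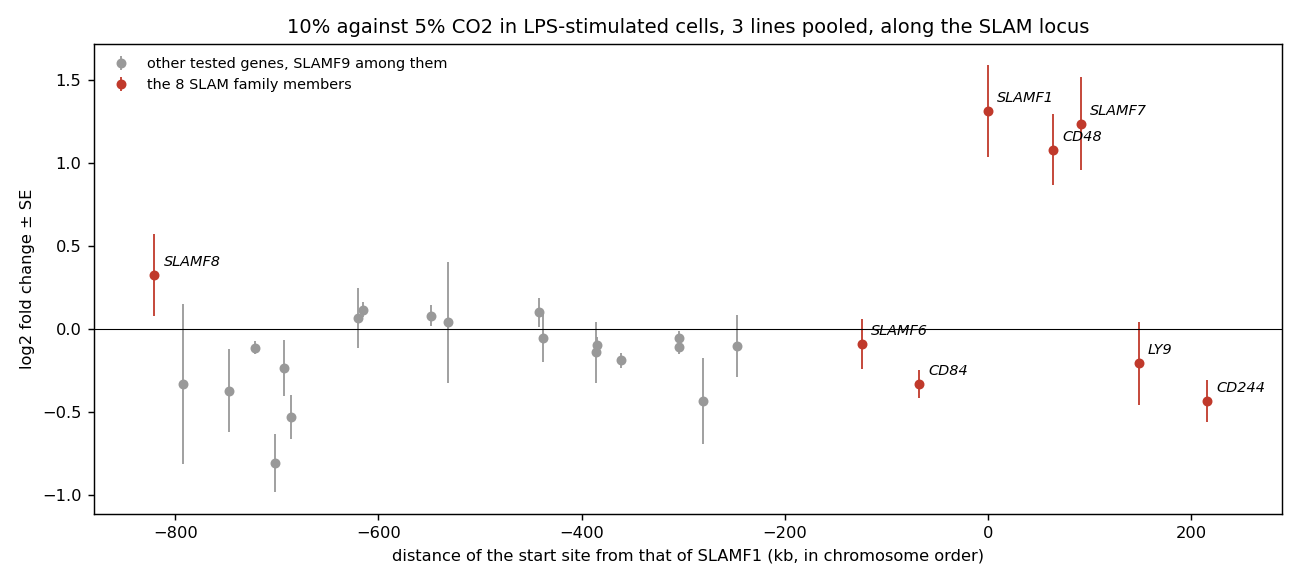
Log2 fold change of 10% against 5% CO2 in LPS-stimulated cells, 3 lines together, ± SE (y axis) against the distance of each gene's start from that of SLAMF1 in kb (x axis). The 8 members are red and the other tested genes, all between SLAMF8 and SLAMF6, grey. SLAMF1, CD48 and SLAMF7 at 0, 64.6 and 91.8 kb are the 3 points above 1.

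The genes whose mean level over the 12 conditions was most like that of SLAMF1 were PDHA1 (Pearson r = 0.975 across conditions), SEC61G (0.975), ARMCX3 (0.973), TBC1D22B (0.973) and VEGFC (0.967). For SLAMF7 they were TCF7L2 (0.992), CD48 (0.992), LCP1 (0.992), FZD1 (0.989) and GPR137B (0.989), so that its relative CD48 ranked second among all tested genes. The r of SLAMF1 with SLAMF7 was 0.850, which put SLAMF7 at rank 656 for SLAMF1 and SLAMF1 at rank 1677 for SLAMF7. CD48 was at rank 285 for SLAMF1 (r = 0.887). Over the 18 LPS-stimulated libraries, with the mean of each line removed, SLAMF7 and CD48 had an r of 0.977, SLAMF1 and SLAMF7 of 0.844 and SLAMF7 and CD84 of -0.916. These values describe conditions and libraries that share the contrasts of LPS and of CO2 levels and the replicate numbers, and are given without a test. CD48 was close to the limit of detection without LPS and passed the filter only through LPS, so its ranks take in that contrast.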

How the data were processed

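RNA-seq was analysed in 36 libraries of 3 THP-1 lines. The authors trimmed paired reads with Trimmomatic 0.36, aligned them with STAR 2.5.2b to GRCh38 and counted them per gene with featureCounts (Subread 1.5.2), and deposited raw counts without normalization. The annotation release and strand setting are not given in the sources used here, and the latter could move reads between overlapping genes.

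Groups came from the labels. Genes passing filterByExpr (minimum count 10, minimum total 15) were fitted with edgeR 4.0.16 (R 4.3.3) by the robust quasi-likelihood test with TMM factors and Benjamini-Hochberg adjustment over all 17720 genes, and called at an adjusted p under 0.05. Each of 29 comparisons used its own libraries; the pooled CO2 comparisons had the line as a covariate, and 4 more comparisons, between the knockdown lines, were added after values were seen. The SE was derived from the F statistic and is not given for changes near 0. TPM values were derived here from each count and the length that the files list for its gene. The script was tested on simulated data. Totals of 16171161 to 23929138 counts leave CD48 and LY9 with few counts, and intervals on counts (95%) cover counting error only.

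The members and gene lists were chosen with earlier results of these data known. Named genes were the 8 members, SLAMF9, up to 6 called pathway genes and 4 locus neighbours by adjusted p, the 5 genes most correlated with SLAMF1 or SLAMF7, and the targeted genes. Alternatives were RLE factors, library size only, no filter, 1 CPM in every library of a condition, a replicate block, DESeq2 1.42.0, a fit to all 36 libraries and each library left out. Omitting replicate 2 at 5% CO2 + LPS and summing counts over lines were added after seeing the data. Replicate numbers come from the labels, which do not say what they mark. They were taken to pair libraries where all 3 same-numbered pairs had correlated deviations from their group means (r over 0.1, genes of at least 10 CPM on average), as in most LPS and knockdown comparisons but in none of the CO2 comparisons with LPS. The pairing was thus read from the same data, which limits every p-value under the block.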

Additional observations from a re-analysis of the deposited data

Results flagged for a closer look

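Differences between the knockdown lines drew attention in 7 results over 4 genes, because the change from shNT cells differed between shNR4A3 and shNR4A2 cells in a direct edgeR test of the lines against each other. The comparison was added after the values were seen. SLAMF6 was lower in shNR4A3 than in shNR4A2 cells by log2 fold changes of -1.41 at 5% CO2 basal (adjusted p = 0.017), -1.57 at 5% CO2 + LPS (adjusted p = 0.0139), -1.20 at 10% CO2 basal (adjusted p = 0.00629) and -1.40 at 10% CO2 + LPS (adjusted p = 0.0174), in 3 of 3 libraries against 3 of 3 each time. Each of these calls was lost without 1 or 2 single libraries: shNR4A2 replicate 3 or shNR4A3 replicate 1 at 5% CO2 basal (adjusted p up to 0.0855), shNR4A3 replicate 1 or 3 at 5% CO2 + LPS (up to 0.0753), shNR4A2 replicate 3 at 10% CO2 basal (0.0524), and shNR4A2 replicate 3 or shNR4A3 replicate 2 at 10% CO2 + LPS (up to 0.117). At 10% CO2 + LPS, SLAMF7 was lower in shNR4A3 cells (-1.06, adjusted p = 0.00693), and SLAMF1 was at -1.43, a value on libraries that entered its choice. CD84 was higher at 10% CO2 basal (0.44, adjusted p = 0.0126), a call lost without shNR4A3 replicate 2 or 3 (adjusted p up to 0.0784).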

How the results depend on the processing

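No result changed direction past its threshold. Of the counts of called genes, 242 of the values under another setting stayed within 1.5 times the main count and 49 moved, and with 1 library left out 321 stayed and 45 moved. Those that stayed include counts of 0 that remained 0, so these totals overstate how stable the calls were. The pooled CO2 count with LPS, 4 of 7 relatives, was 2 without replicate 2 at 5% CO2 + LPS and 0 with counts summed over the lines, and the pooled basal count of 1 was 0 in the summed fit and in the fit to all 36 libraries. In single lines with LPS, the CO2 count of 0 became 1 in shNT cells without a filter, with DESeq2 and in the fit to all 36 libraries. It became 1 in shNR4A2 cells without a filter, in the fit to all 36 libraries and with the replicate block, which does not pair these libraries, and the count of 1 in shNR4A3 cells became 2 without a filter and 0 with library size only and in the fit to all 36 libraries. The LPS count of 4 in shNR4A3 cells at 5% CO2 was 2 with 1 CPM required. For shNR4A2 against shNT at 5% CO2 + LPS, 1 member was called against 2 (library size only, 1 CPM), 4 (no filter, DESeq2, all 36 libraries) and 6 (replicate block). For shNR4A3 there, 1 became 2 with DESeq2 and 4 with the replicate block and in the fit to all 36 libraries. That last fit also left 1 call in shNR4A2 and 1 in shNR4A3 cells at 10% CO2 basal, and 1 in shNR4A3 cells at 5% CO2 basal. The interaction of CO2 with LPS in shNT cells gave 1 call without a filter.

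Between the knockdown lines the replicate block gave 3, 5, 4 and 6 calls at 5% basal, 5% + LPS, 10% basal and 10% + LPS, the fit to all 36 libraries 2 and 3 in the first pair of states, the unfiltered fit 2 at 5% + LPS and 5 at 10% + LPS, and DESeq2 2 at 5% + LPS. Pathway genes called with the pooled CO2 response under LPS fell from 3 higher to 1 (replicate 2 omitted, summed) and from 7 lower to 0 (summed), and those lower basally from 3 to 0 (summed). With LPS in shNT cells at 5% CO2 the pathway genes numbered 5 higher and 4 lower with the replicate block, and 1 (RLE), 8 (library size only) and 0 (DESeq2, all 36 libraries) lower. Locus neighbours called were 3 without a filter and in the fit to all 36 libraries and 0 in the summed fit. The cause of these changes was not tested. At 5% CO2 + LPS the replicate block called 24.7% of all genes for shNR4A2 and 18.7% for shNR4A3 against shNT, where the main fit called 6.21% and 5.41%. The summed fit called 979 genes for CO2 with LPS and 244 basally, where the main fit called 5460 and 3172. Most other counts in this section stand without the share of all genes under the same setting. A rise or fall of such a count is therefore no result about the members.

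With 1 library left out, the CO2 count with LPS ranged from 0 to 3 in shNT, 0 to 1 in shNR4A2 and 0 to 1 in shNR4A3 cells, the pooled basal count from 0 to 1 and the LPS count in shNT cells at 5% CO2 from 3 to 5. For shNR4A2 against shNT the range was 1 to 3 at 5% CO2 basal and 0 to 4 at 5% CO2 + LPS, and for shNR4A3 1 to 3, 1 to 2, 1 to 3 at 10% CO2 basal and 2 to 3 at 10% CO2 + LPS. Between the knockdown lines it was 0 to 1 at 5% CO2 in both states and 1 to 3 at 10% CO2 basal, for lower pathway genes with LPS in shNT cells 0 to 3, and for locus neighbours 3 to 5. The other replicate block fits changed calls as given beside the results. The low counts of CD48 in basal cells and of LY9 limit what could be detected for them.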
